A study of Arabidopsis thaliana with 20 samples.

Results

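Small RNAs of 21 and 22 nt were followed on 10 genes for pentatricopeptide repeat (PPR) proteins that lie close together on chromosome 1 of Arabidopsis and are known sources of phased small interfering RNAs (siRNAs) in wild-type plants. The genes were *AT1G62590*, *AT1G62670*, *AT1G62910*, *AT1G62914*, *AT1G62930*, *AT1G63080*, *AT1G63130*, *AT1G63150*, *AT1G63330* and *AT1G63400*. They were taken by identifier, as a given list, from the 27415 genes of the count table. On the TAIR10.1 assembly they span chromosome 1 from 23176930 to 23509484, a stretch of 332.6 kb that holds 91 genes of the table, 15 of which encode PPR proteins. Of the 10 genes, 7 lie on the plus strand and 3 on the minus strand. Because some of the genes overlap others on the opposite strand and the use of strand in the counting is not given in the sources used here, reads of such partners cannot be told apart. *AT1G62590* overlaps *AT1G62580* and a long non-coding RNA, *AT1G63130* overlaps an annotated miRNA gene, and *AT1G63330* overlaps *AT1G63340*.

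PPR proteins are RNA-binding proteins of mitochondria and plastids. The genes studied here belong to the branch that is related to restorers of fertility (RFL). Several proteins of this branch are needed for processing of the ends of mitochondrial transcripts. RFL transcripts are cleaved by miRNAs and by trans-acting siRNAs, and the cleaved RNA is copied into double-stranded RNA by RNA-DEPENDENT RNA POLYMERASE6 and cut by DICER-LIKE enzymes into siRNAs that follow each other in register. This route runs in wild-type plants, whereas many other mRNAs give rise to siRNAs only when cytoplasmic RNA decay fails.

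All lines and the controls were in the Col-0 background, which lacks a fully functional SOV exoribonuclease, and closed flower buds of 4 plants were pooled for each library. The *cer7* group held 5 libraries of plants with a T-DNA insertion in CER7, which encodes RRP45B, a core subunit of the RNA exosome (*cer7-3*, labelled *cer7-gabi*, with 3 libraries, and *cer7-4*, labelled *cer7-sail*, with 2). The *rst1* group held 6 libraries of T-DNA insertion mutants of RST1 (lines *rst1-2* and *rst1-3*, with 3 libraries each), and the *ripr* group held 6 libraries of plants with 1 base inserted in RIPR by CRISPR-Cas9 (*ripr(insT)*, labelled *riprT*, and *ripr(insC)*, labelled *riprC*, with 3 libraries each). RST1 and RIPR are proteins that link the cytosolic exosome to the Ski complex. Each line stands for 1 mutational event. The wild-type group held 3 Col-0 libraries. Plants grew at 20 °C for 3 weeks with 12 h of light per day and for 3 more weeks with 16 h of light and 8 h of darkness. The tissue label was not checked against marker genes, since the table holds small RNAs and not mRNA, and for the same reason the mutated genes themselves are no check of the labels. In pooled tissue, fewer cells that make a small RNA and less of it per cell cannot be told apart.

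The small RNAs that are known or possible triggers of these genes are shown first, because the 10 genes share sites for them. The sequences were read from the TAIR10.1 assembly at the annotated positions, are written 5′ to 3′, and have the seed (bases 2 to 8) in capitals. miR161.1 and miR161.2 come from overlapping positions of the same hairpin on chromosome 1, and miR400 comes from another locus of chromosome 1. TAS2 3D6(-) is the siRNA on the antisense strand at position 6 of the phased register that the miR173 cut sets in the TAS2 transcript on chromosome 2.
miR161.1: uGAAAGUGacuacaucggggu
miR161.2: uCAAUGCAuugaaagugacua
miR400: uAUGAGAGuauuauaagucac
TAS2 3D6(-): aUAUCCCAuuucuaccaucug

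A site was scored by its pairing to the small RNA, with a penalty of 1 for a mismatch and 0.5 for a G:U pair, both doubled at bases 2 to 13 of the small RNA, and with a penalty of at most 4 counted as a site. A site is a match of letters and was not tested for cleavage. A site for miR161.2 was found in 10 of the 10 genes, against 22 of 27562 annotated transcripts (0.0798%). A site for miR400 was found in 9 genes (24 transcripts, 0.0871%), a site for TAS2 3D6(-) in 8 genes (14 transcripts, 0.0508%) and a site for miR161.1 in 7 genes (13 transcripts, 0.0472%). At the stricter penalty of 3 the numbers were 8, 5, 8 and 6 genes. Other PPR genes held such sites too, at a penalty of at most 4. Of the 13 others numbered *AT1G62000* to *AT1G64999*, 5 held a site for miR161.2, 4 for miR400, 1 for TAS2 3D6(-) and 3 for miR161.1. Of the remaining 461 PPR genes of the table the numbers were 6, 10, 2 and 3. Each of the 10 genes held sites for 3 (6 genes) or 4 (4 genes) of these small RNAs. All of these sites lay in coding sequence.

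The distinct site sequences for TAS2 3D6(-) and miR161.2 are given here because they divide the listed genes. The capitals mark bases that pair with the small RNA, and lower case marks mismatches and G:U pairs. For TAS2 3D6(-), *AT1G63080* (chr1:23390231-23390251, minus strand) and *AT1G63130* (chr1:23413379-23413399, plus strand) shared the best site, with a penalty of 1. *AT1G62910*, *AT1G62914* and *AT1G63150* shared another form, and *AT1G62590*, *AT1G63330* and *AT1G63400* a further one, both with a penalty of 3. *AT1G62670* and *AT1G62930* held no match within the limit.
3D6(-) site of AT1G63080 and AT1G63130: CAGATGGTgGAAATGGGATAT
3D6(-) site of AT1G62910, AT1G62914 and AT1G63150: CAaATGGTcGAAATGGGATAT
3D6(-) site of AT1G62590, AT1G63330 and AT1G63400: CAaATGGTgGAAATGGGgTAT
miR161.2 site of AT1G62590 and AT1G63330: TAGTCACgTTCAATGCATTGA
miR161.2 site of AT1G63150: TtGTtACTTTCAATGCATTGA
miR161.2 site of AT1G63400: TAGTCACTTTCAAcGCATTGA
miR161.2 site of AT1G62910, AT1G62914, AT1G62930 and AT1G63130: TAGTCACTTTCAgcGCATTGA

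The miR161.2 sites of *AT1G62590* and *AT1G63330* had a penalty of 1, that of *AT1G63150* 1.5, that of *AT1G63400* 2, and the form shared by *AT1G62910*, *AT1G62914*, *AT1G62930* and *AT1G63130* a penalty of 3. *AT1G62670* and *AT1G63080* had miR161.2 sites with a penalty of 4. The layout of the sites was the same in every gene that held them. From the start of the TAS2 3D6(-) site to the start of the miR161.2 site there were 451 bases in 8 of 8 genes, and from the miR161.2 site to the miR400 site 212 bases in 9 of 9 genes. The miR161.1 site began 9 bases before the miR161.2 site in 7 of 7 genes.

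**Figure D1:**
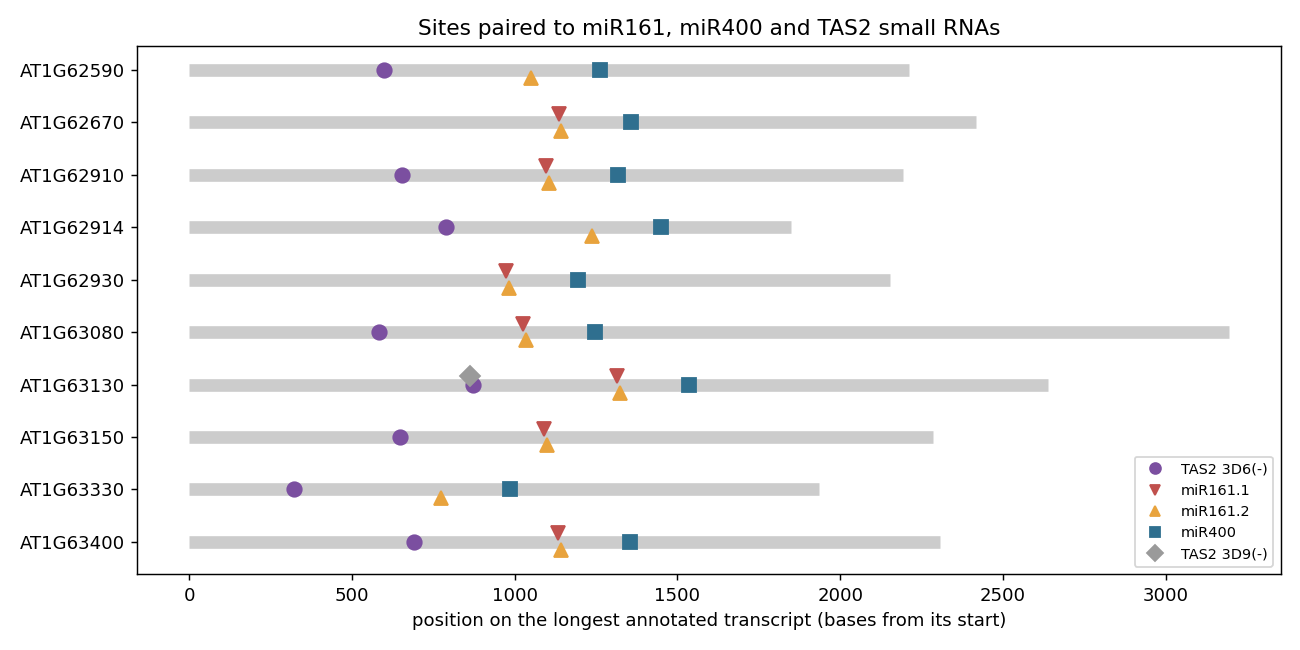
Positions of the sites on the longest annotated transcript of each gene, in bases from the transcript's start, with 1 row per gene and 1 symbol per small RNA. The order of TAS2 3D6(-), miR161 and miR400 is the same in every row, and *AT1G62670* and *AT1G62930* have no TAS2 3D6(-) symbol.

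The same site was also found on a gene with few small RNAs. *AT1G63070*, the PPR gene beside *AT1G63080*, carries the same TAS2 3D6(-) site (chr1:23386640-23386660, minus strand, penalty 1), and also sites for miR161.2 and miR400 with a penalty of 3.5 each. In wild type it had 39.8 ± 11.2 CPM (SD, n = 3), where CPM is the count scaled to a common TMM-adjusted total of counts on the 2916 genes tested, against 6879 ± 777 CPM on *AT1G63080*.

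The 10 genes resemble each other so closely that the reads of some members cannot be assigned with confidence. Identity of the coding sequences over 45 pairs ran from 65.29% to 90.21%, with a median of 82.18%. The closest pair was *AT1G62910* and *AT1G63130*. The share of 21-base windows that occur once in the genome had a median of 43.8% over the 10 genes and was below 50% in 6 of them. It was highest in *AT1G63080* (67.1%), *AT1G62670* (57.0%), *AT1G63150* (55.9%) and *AT1G63130* (51.6%), and lowest in *AT1G62910* (14.9%), *AT1G62590* (11.8%) and *AT1G63330* (3.62%). *AT1G62590* and *AT1G63330* have 1801 windows in common, which make up 78.3% of those of *AT1G62590* and 83.5% of those of *AT1G63330*. The authors aligned without mismatches in the unique mode of the aligner, and how a read that fits several genes was placed was not checked here. Across the 10 genes, the wild-type level per kb and the share of unique windows had a Spearman rho of 0.55, a description over genes that share sequence.

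**Figure D2:**
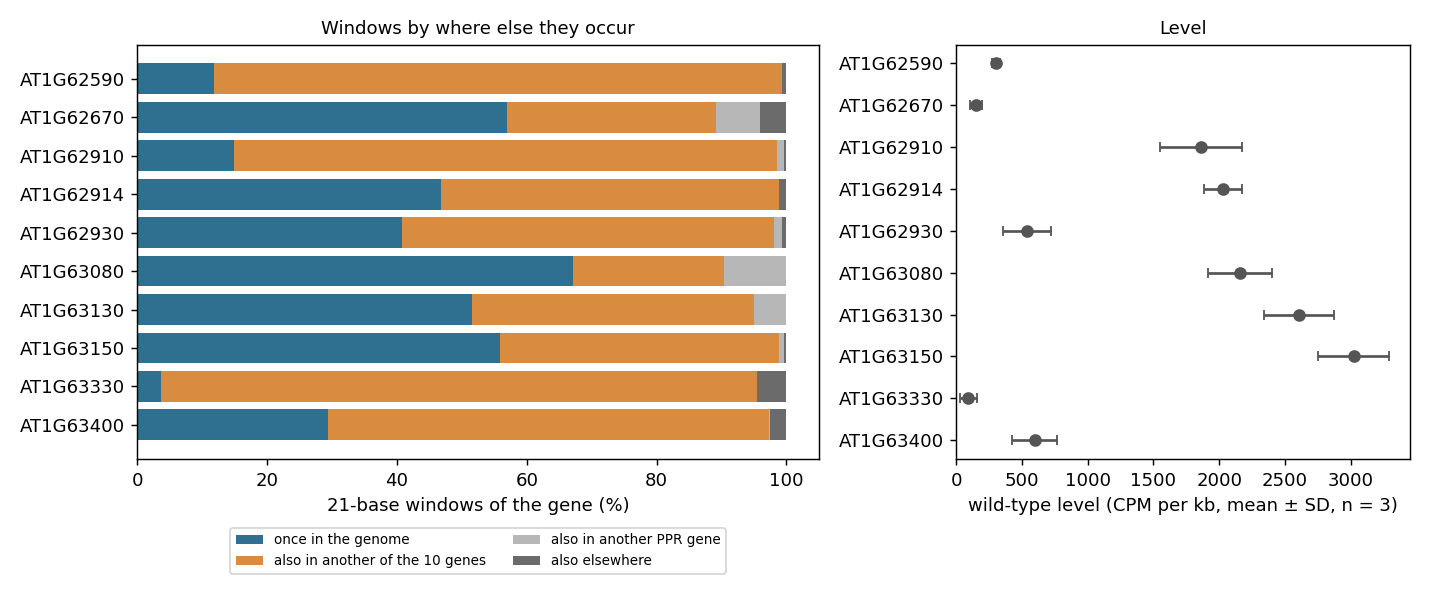
Left, the share of each gene's 21-base windows that occur once in the genome, that recur in another of the 10 genes, in another PPR gene or elsewhere (percent). Right, the wild-type level of each gene in CPM per kb of transcript (mean and SD of 3 libraries). *AT1G63330*, with 3.62% unique windows, also has the lowest level.

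The table held from 192747 to 522464 counts per library, of which 5998 to 15570 fell on the 10 genes. The *cer7* libraries held 305475 to 522464 counts, all above wild type (203245 to 230727) and *rst1* (192747 to 296842). In size the *cer7* libraries overlapped with the *ripr* libraries (193616 to 371040). All 10 genes passed the filter on low counts, and the smallest count of any of them in any library was 16, on *AT1G63330*. CER3, a gene of wax biosynthesis, took 0.446% to 2.64% of the counts in the mutant libraries and 0.00997% to 0.0143% in wild type. The mutants were compared with wild type by edgeR's quasi-likelihood test in 1 fit of the 20 libraries, with p-values adjusted over the 2916 genes by Benjamini-Hochberg. A gene was called raised or lowered with an adjusted p below 0.01 and a log2 fold change beyond 1 in either direction. The 3 comparisons with wild type share the same 3 wild-type libraries.

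The 10 genes were strong sources of small RNAs in every group, wild type included. In wild type they took 3.09% of all counts, against 0.0576% on the 13 other PPR genes numbered *AT1G62000* to *AT1G64999*, of which 5 lie within the stretch, and 0.319% on the remaining 461 PPR genes of the table. By CPM, *AT1G63150*, *AT1G63080* and *AT1G63130* were at ranks 12, 13 and 15 of the 2916 genes in wild type, and the lowest member, *AT1G63330*, was at rank 530. Per kb of transcript, the wild-type order was *AT1G63150* (3022 ± 269 CPM per kb), *AT1G63130* (2606 ± 265), *AT1G63080* (2155 ± 243), *AT1G62914* (2029.6 ± 143) and *AT1G62910* (1862 ± 312). These 5 formed a run in which the libraries of each neighbouring pair overlapped. A gap separated them from *AT1G63400* (596 ± 169 CPM per kb) and *AT1G62930* (537 ± 185), which overlapped each other. *AT1G62590* (303 ± 31.9 CPM per kb) lay apart from its neighbours, and *AT1G62670* (149.9 ± 48.5) and *AT1G63330* (92.1 ± 62.5) overlapped. The order at the top differed between groups, with *AT1G62914* first in *rst1* (4396 ± 1109 CPM per kb) and *AT1G63130* first in *cer7* and *ripr* (2886 and 3628 CPM per kb), although each neighbouring pair among the top 4 genes overlapped in every group.

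**Figure D3:**
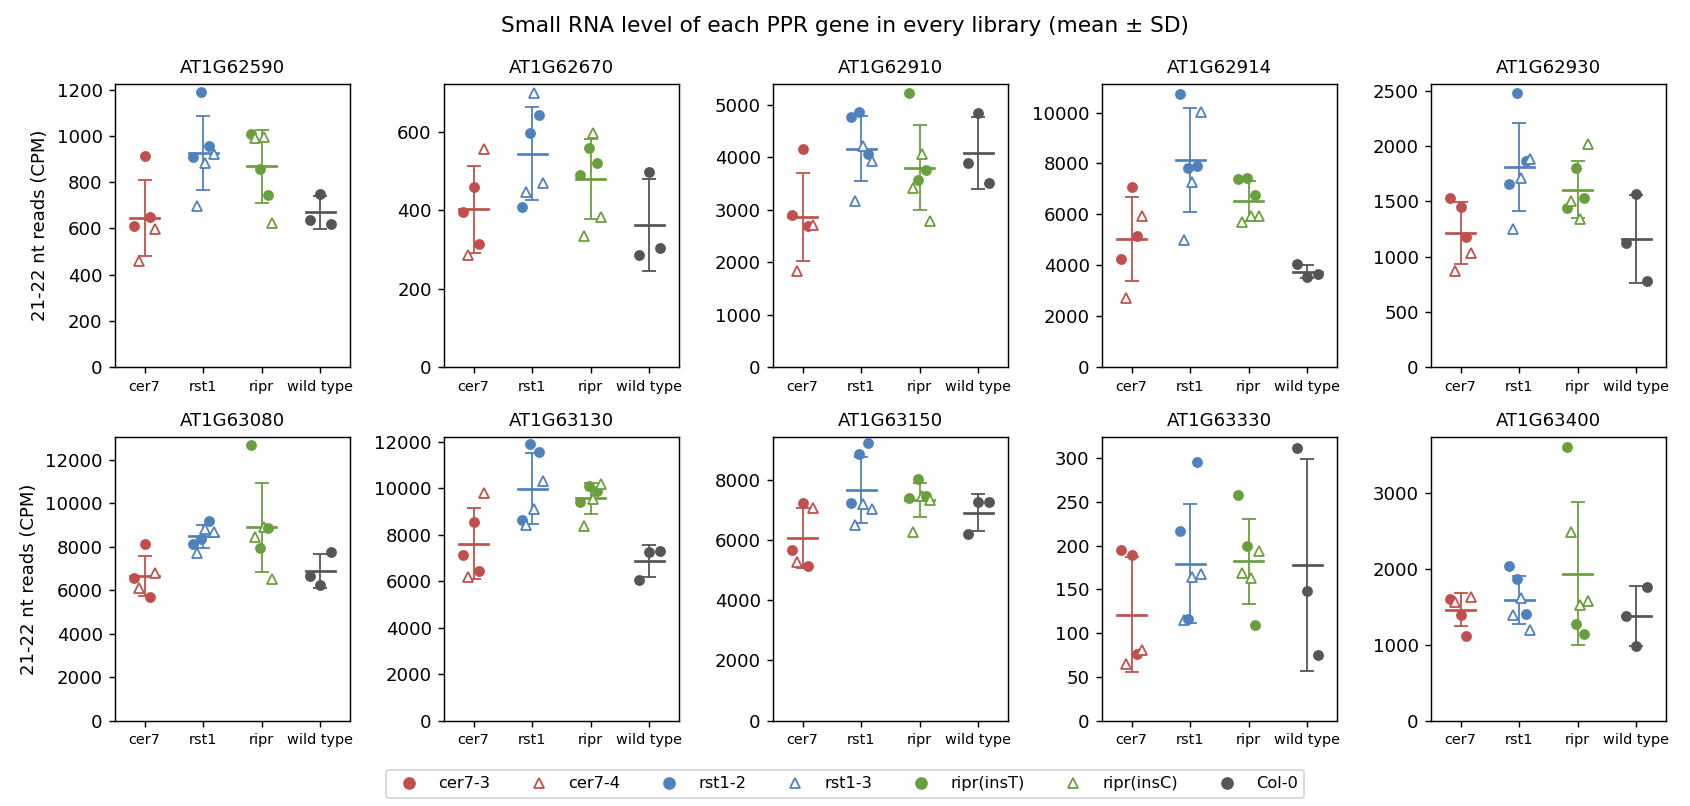
Level of each gene in CPM in each of the 20 libraries, 1 panel per gene with its own axis from 0, in the order *cer7*, *rst1*, *ripr* and wild type. Symbols mark the lines, and bars give the mean and SD of each group. The *rst1* and *ripr* libraries lie above the 3 wild-type libraries on *AT1G62914* and *AT1G63130*, and on every other gene each mutant overlaps wild type.

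Against wild type, 1 of the 10 genes passed the test, in 1 of the 3 mutants. In *cer7*, 0 of the 10 genes were raised and 0 lowered (edgeR, with 1 gene at an unadjusted p below 0.05; DESeq2 also gave 0 and 0). Over all genes tested 17.4% were raised and 2.19% lowered. In *rst1*, 1 gene was raised and 0 lowered, against 9.95% and 0.652% of all genes. In *ripr*, 0 were raised and 0 lowered (4 genes at an unadjusted p below 0.05, and 0 and 0 with DESeq2), against 9.91% and 0.72% of all genes. The count of 1 of 10 in *rst1* is the share found over all genes. At an unadjusted p below 0.05 in edgeR there were 1, 5 and 4 members in *cer7*, *rst1* and *ripr*. Over all 2916 genes there were 1346, 968 and 941. The number of members that lay in every mutant library above every wild-type library was 0 in *cer7* (22.6% of all genes), 2 in *rst1* (15.8%) and 2 in *ripr* (16.2%), and in *rst1* and *ripr* these were *AT1G62914* and *AT1G63130*.

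*AT1G62914*, an RFL-type PPR gene with no name in the annotation, was the gene called in *rst1*. Its level in the *cer7-3* libraries was 4244, 7076 and 5134 CPM, and in the *cer7-4* libraries 2724 and 5939 CPM. In *rst1* the lowest, median and highest values were 5007, 7854 and 10735 CPM, in *ripr* 5693, 6355 and 7423 CPM, and the wild-type libraries had 4046, 3539.7 and 3666 CPM. All 12 libraries of *rst1* and *ripr* were thus above all wild-type libraries, whereas the *cer7* libraries lay on both sides of them. The log2 fold change was 1.11 ± 0.24 in *rst1* (SE, adjusted p = 0.00136), 0.80 ± 0.23 in *ripr* (adjusted p = 0.0159) and 0.42 ± 0.24 in *cer7* (adjusted p = 0.167). The difference between *cer7* and *rst1*, tested directly, was −0.69 ± 0.20 with an adjusted p of 0.0345, and that between *rst1* and *ripr* 0.32 ± 0.18 with an adjusted p of 0.897. The call in *rst1* was lost when wild-type replicate 2 was left out (log2 fold change 1.02, adjusted p = 0.0432), without wild-type replicate 3 (1.01, adjusted p = 0.019) and without *cer7-4* replicate 3 (0.98, adjusted p = 0.00425). Over all alternatives its adjusted p ran from 0.000265 to 0.0432. Of the windows of *AT1G62914*, 46.8% occur once in the genome, and 52.1% recur in another of the 10 genes.

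*AT1G63130*, named RNA PROCESSING FACTOR6 (RPF6), carries the best TAS2 3D6(-) site and is annotated as a locus that makes trans-acting siRNAs. It had 7127, 8552 and 6421 CPM in *cer7-3* and 6184 and 9788 CPM in *cer7-4*. In *rst1* it had 8418, 9711 and 11908 CPM (lowest, median and highest) and in *ripr* 8372, 9696 and 10179.5 CPM, against 6067, 7276 and 7283 CPM in wild type. The *rst1* and *ripr* libraries did not overlap with wild type, but the distance was small. The log2 fold change was 0.54 ± 0.16 in *rst1* (edgeR, adjusted p = 0.0204), 0.48 ± 0.16 in *ripr* (adjusted p = 0.0387) and 0.15 ± 0.17 in *cer7* (adjusted p = 0.504), which met the threshold of the call in none of them.

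The other genes annotated as trans-acting siRNA loci were *AT1G63080*, which carries the same best site, and *AT1G63150*. *AT1G63080* had 6552, 8125 and 5677 CPM in *cer7-3*, 6099.5 and 6811 CPM in *cer7-4*, 7702, 8528 and 9186 CPM in *rst1* (lowest, median and highest), 6514, 8647 and 12698 CPM in *ripr*, and 6664, 6233 and 7742 CPM in wild type. All groups overlapped. The highest *ripr* value was that of *ripr(insT)* replicate 1, and without that library the log2 fold change in *ripr* was 0.25, compared with 0.37 ± 0.17 (adjusted p = 0.13) with it. *AT1G63150* had the flattest profile, with 5681, 7229 and 5143 CPM in *cer7-3*, 5255 and 7053 CPM in *cer7-4*, 6495, 7214.5 and 9212 CPM in *rst1*, 6281, 7419 and 8024 CPM in *ripr*, and 6199, 7276 and 7253 CPM in wild type. Its log2 fold change was −0.19 ± 0.16 in *cer7*, then 0.15 ± 0.15 in *rst1*, and 0.08 ± 0.15 in *ripr* (edgeR, adjusted p = 0.361, 0.525 and 0.752).

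Among the genes with a described or proposed function, *AT1G62670* is RPF2, which is required for processing of the 5′ ends of mitochondrial nad9 and cox3 mRNAs. *AT1G62930* is RPF3, which is involved in processing of the 5′ ends of different mitochondrial mRNAs. *AT1G62590* is annotated as an adenylate cyclase and *AT1G62910* as RFL9. RPF2 had 286 to 557 CPM in *cer7*, 409 to 701 CPM in *rst1*, 334 to 597 CPM in *ripr* and 286 to 497 CPM in wild type. RPF3 had 869 to 1530 CPM in *cer7*, 1254 to 2479.5 CPM in *rst1*, 1335 to 2019 CPM in *ripr* and 775 to 1569 CPM in wild type. Both overlapped with wild type in every mutant, and both lack the TAS2 3D6(-) site. The log2 fold change of RPF3 in *rst1* was 0.65 ± 0.23 (edgeR, adjusted p = 0.0416), and that of RPF2 0.59 ± 0.25 (adjusted p = 0.0902). Without wild-type replicate 3 these values were 0.34 and 0.39, and over all libraries left out singly they reached 0.89 and 0.84. *AT1G62590* had 459 to 913 CPM in *cer7*, 695 to 1190.4 CPM in *rst1*, 624 to 1008 CPM in *ripr* and 621 to 751 CPM in wild type, with an adjusted p of 0.106 in *rst1*.

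*AT1G62910* was among the genes with the lowest fold changes in *cer7*. It had 2907, 4162 and 2689 CPM in *cer7-3* and 1823 and 2709.8 CPM in *cer7-4*, against 3888, 4846 and 3521 CPM in wild type. Of the 5 *cer7* libraries only *cer7-3* replicate 2 lay within the wild-type range. The log2 fold change in *cer7* was −0.51 ± 0.21, which did not pass (edgeR, adjusted p = 0.0603) and was −0.33 without *cer7-4* replicate 1. In *rst1* and *ripr* it was 0.03 ± 0.21 and −0.10 ± 0.21 (adjusted p = 0.941 and 0.775). Only 14.9% of its windows are unique, and 83.6% recur in other members.

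*AT1G63330* and *AT1G63400* complete the family. *AT1G63330*, with 64.4 to 195.5 CPM in *cer7*, 115 to 295 CPM in *rst1*, 109.8 to 257 CPM in *ripr* and 74.9 to 311 CPM in wild type, had counts of 16 to 82 per library and the largest standard errors, 0.39 to 0.41 on the log2 scale. *AT1G63400* had 1113 to 1633.5 CPM in *cer7*, 1199 to 2031 CPM in *rst1*, 1144 to 3602 CPM in *ripr* and 981 to 1762 CPM in wild type. Its value of 3602 CPM in *ripr(insT)* replicate 1 stands far above the other *ripr* libraries. The log2 fold change in *ripr* was 0.49 ± 0.28 with that library (edgeR, adjusted p = 0.236) and 0.23 without it.

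**Figure D4:**
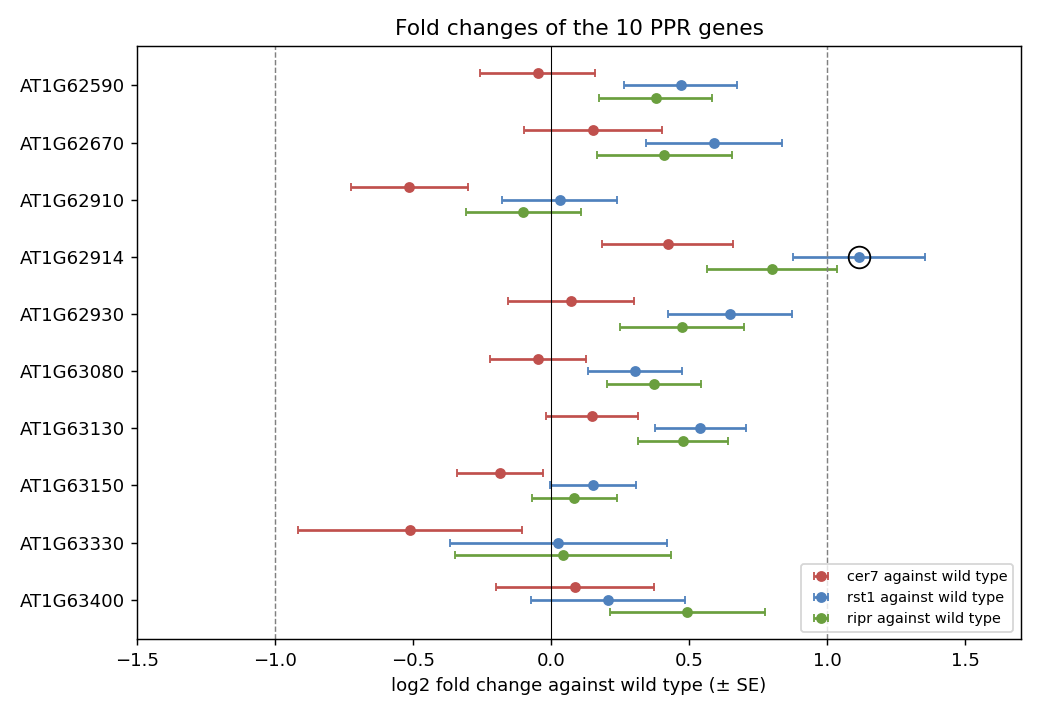
Log2 fold change against wild type of each of the 10 genes in *cer7*, *rst1* and *ripr*, with SE from edgeR. Points lie on both sides of 0 in *cer7* (−0.51 to 0.42) and at or above 0 in *rst1* (0.03 to 1.11), and *AT1G62914* in *rst1* is the point called.

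Fold changes of the members were nearly all positive in *rst1* and *ripr* and split evenly in *cer7*. The median log2 fold change of the 10 genes was 0.01 in *cer7*, with 5 of 10 positive, 0.39 in *rst1*, with 10 of 10 positive, and 0.39 in *ripr*, with 9 of 10 positive. The medians over all genes tested were 0.07, 0.09 and 0.07. When 1 library was left out, the members' median ran from 0.25 (without *cer7-4* replicate 3) to 0.44 in *rst1*. In *ripr* it ran from 0.23 (without wild-type replicate 3) to 0.45, with 0.25 without *cer7-4* replicate 3. Relative to the median of all genes, the members were lower by 0.06 in *cer7* (a difference of −0.06) and higher by 0.30 in *rst1* and 0.32 in *ripr*. In *cer7* the sign of the members' median depended on the scaling. It was −0.28 when only library totals were used and 0.24 when TMM was computed on genes raised in no mutant, while the median of all genes moved to −0.23 and 0.28. The distance between members and all genes, which a change of scale leaves nearly as it was by construction, was then −0.05 and −0.04. The split of all genes in *cer7* also moved with the scaling, with 507 raised and 64 lowered in the main fit, 415 and 262 with library totals, and 611 and 16 with the last scaling.

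In the direct comparisons of the mutants, all 10 genes had lower fitted values in *cer7* than in *rst1* (−0.69 to −0.12, median −0.48) and than in *ripr* (−0.55 to −0.26, median −0.41), beside medians of 0.01 and 0.03 over all genes. Without *cer7-4* replicate 1 the medians were −0.27 and −0.21, and the difference of *AT1G62914* between *cer7* and *rst1* was −0.44. Of the differences with all libraries 0 were called. In edgeR 8 genes (*cer7* against *rst1*) and 5 genes (*cer7* against *ripr*) had an unadjusted p below 0.05, and DESeq2 called 0 in both. Of all 2916 genes, 562 and 673 had an unadjusted p below 0.05 in these comparisons. Over all genes 2.5% and 2.95% were called. With library totals alone as the scaling, 1 gene was called between *cer7* and *rst1*, again *AT1G62914* (−1.02 ± 0.18, edgeR, adjusted p = 0.000446). Under that scaling the median of all genes moved to −0.31, so part of this difference is shared by all genes. Of the 2916 genes, 44 were then called higher and 51 lower in *cer7* than in *rst1*. Between *rst1* and *ripr* the members differed by −0.29 to 0.32, with 0 called, 0 at an unadjusted p below 0.05 and 0 by DESeq2. Among all genes 0.617% were called and 182 had an unadjusted p below 0.05.

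The lines pooled in each group were also compared, in a fit with 7 groups and 3329 genes. Between *cer7-3* and *cer7-4*, 0 members were called (edgeR and DESeq2, 0.33% of all genes), although 4 had an unadjusted p below 0.05. Of all 3329 genes, 469 had an unadjusted p below 0.05. The differences of 7 members were positive and those of 3 negative, with a median of 0.28 beside −0.03 over all genes. The widest difference was that of *AT1G63330* (1.16 ± 0.51, adjusted p = 0.308), whose counts were low. Between *rst1-2* and *rst1-3*, 0 members were called by either tool and 0 had an unadjusted p below 0.05. Among all genes 0.18% were called and 240 had an unadjusted p below 0.05. The differences of all 10 members were positive, from 0.04 to 0.51, with a median of 0.30 beside −0.03 over all genes. The members' median in *rst1* against wild type was 0.39, so the 2 lines of *rst1* differed by nearly as much. Between *ripr(insT)* and *ripr(insC)*, 0 members were called by either tool, 0 had an unadjusted p below 0.05, and 0% of all genes were called, with 98 genes at an unadjusted p below 0.05. The differences of 9 members were positive and that of 1 negative, with a median of 0.13 beside 0.004 over all genes.

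As a share of all counts, the 10 genes made up 2.45 ± 0.416% in *cer7* (SD, n = 5, 2.03% to 2.96%), 4.12 ± 0.457% in *rst1* (n = 6, 3.35% to 4.59%) and 3.90 ± 0.317% in *ripr* (n = 6, 3.61% to 4.51%), against 3.08 ± 0.185% in wild type (n = 3, 2.95% to 3.29%). The *rst1* and *ripr* libraries lay above the wild-type libraries, and 4 of the 5 *cer7* libraries below them. A share falls when other genes gain counts. With the 536 genes other than members that were raised in any mutant taken out of the total, the share was 4.00 ± 0.836% in *cer7* (3.09% to 4.98%), 4.89 ± 0.627% in *rst1* (3.79% to 5.59%) and 4.69 ± 0.441% in *ripr* (4.23% to 5.44%), against 3.13 ± 0.19% in wild type (2.995% to 3.34%). The genes taken out were chosen for higher counts in the mutants, so that this total raises the share of every mutant by construction. The position of *cer7* relative to wild type differed between the totals. These shares were described and not tested.

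**Figure D5:**
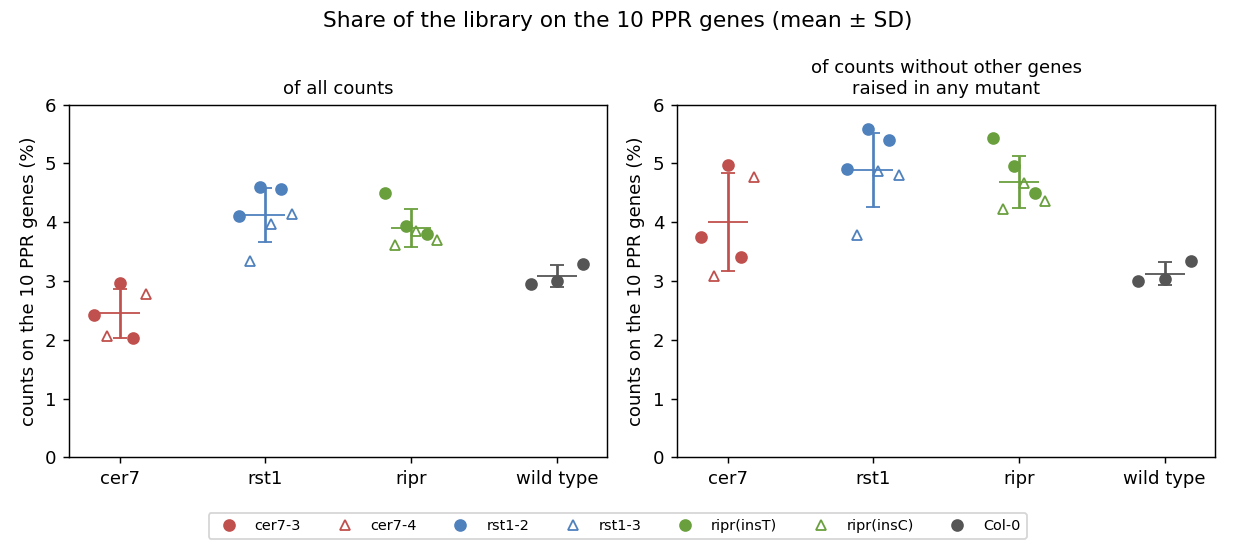
Counts on the 10 genes as a percentage of all counts (left) and of the counts without the 536 other genes raised in any mutant (right), in each library, with group mean and SD. The *cer7* group lies below wild type on the left (2.45% against 3.08%) and above it on the right (4.00% against 3.13%).

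Within the 10 genes, the fraction of the members' counts that a gene supplied lay apart from wild type in at least 1 mutant for 3 genes, which was not tested. All 10 genes were looked at in 3 mutants, against 3 wild-type libraries. No share over all genes is at hand for such fractions, so the count is a description and not a result about these genes. *AT1G62914* supplied 15.4 ± 3.11% of the members' counts in *cer7*, 18.6 ± 3.78% in *rst1* and 15.8 ± 1.17% in *ripr*, against 11.7 ± 1.36% in wild type, and the *rst1* and *ripr* libraries did not overlap with wild type. *AT1G62910* supplied 8.82 ± 1.42% in *cer7*, 9.58 ± 0.84% in *rst1* and 9.17 ± 1.14% in *ripr*, against 12.7 ± 1.98% in wild type, and here the *cer7* libraries did not overlap with wild type. *AT1G63150* supplied 19.01 ± 1.11% in *cer7*, 17.6 ± 1.51% in *rst1* and 17.9 ± 1.68% in *ripr*, against 21.4 ± 0.987% in wild type, with no overlap in *rst1* and *ripr*. These fractions sum to a fixed total, so that a larger fraction of a gene lowers those of the others. Reads of *AT1G62910* are also hard to separate from those of several members. It shares 856 windows with *AT1G63150*, 656 with *AT1G62930*, 582 with *AT1G63130* and 524 with *AT1G62914*.

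Over the 20 libraries the log2 CPM of the members varied together in most pairs, with Pearson correlations from −0.06 to 0.84 and a median of 0.57 over 45 pairs. These values describe libraries that share groups and scaling. *AT1G62590* followed the mean of the other members most closely (0.87) and *AT1G63400* least (0.23). The gene outside the list whose profile was most like the members' mean was *AT1G12775* (r = 0.89), another PPR gene of chromosome 1. It holds a site for TAS2 3D6(-) with a penalty of 3.5 and one for another TAS2 siRNA, 3D12(-), with a penalty of 2.5. *AT1G12775* averaged 482 CPM in *cer7*, 706 CPM in *rst1* and 624 CPM in *ripr*, against 483 CPM in wild type. Its log2 fold change in *rst1* was 0.55 ± 0.18 (edgeR). The gene was picked for its likeness over these same libraries. Its values therefore follow those of the members by selection and are no separate support. The next in likeness were *AT1G12680* (0.81), *AT4G27440* (0.74), *AT5G11430* (0.70) and *AT3G55200* (0.69).

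The 13 other PPR genes numbered *AT1G62000* to *AT1G64999*, 5 of them within the stretch that the members span, gave few small RNAs. Of these, 4 passed the filter on low counts, and their median log2 fold change was −0.51 in *cer7*, −0.06 in *rst1* and −0.15 in *ripr*. *AT1G63630* was called lowered in *cer7*, with 104 ± 35.6 CPM in *cer7* (14 to 54 counts) against 235 ± 99.8 CPM in wild type (37 to 73 counts) and a log2 fold change of −1.16 ± 0.34 (edgeR, adjusted p = 0.00904). This gene holds sites for miR161.2 (penalty 2.5) and miR161.1 (penalty 3.5) in coding sequence. It also carries a site in its 5′ UTR that pairs at every base with another TAS2 siRNA, 3D9(-).
TAS2 3D9(-): uCUACCAUccgaucaacaaga
3D9(-) site of AT1G63630: TCTTGTTGATCGGATGGTAGA

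The 3D9(-) site of *AT1G63630* lies at chr1:23587185-23587205 on the plus strand. Its call in *cer7* stood at the threshold and was lost in 13 of the 20 fits that left out 1 library. It was kept only without *cer7-3* replicate 1, *rst1-3* replicate 1, 2 or 3, *ripr(insT)* replicate 1, *ripr(insC)* replicate 3 or wild-type replicate 3, and the adjusted p reached 0.156 without wild-type replicate 2, with a log2 fold change of −0.78. *AT1G63070*, the gene with the TAS2 3D6(-) site described above, had 32.2 ± 26.9 CPM in *cer7*, 74.0 ± 26.0 CPM in *rst1* and 67.3 ± 45.4 CPM in *ripr*, against 39.8 ± 11.2 CPM in wild type, and was not called in any mutant.

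Of the remaining 461 PPR genes, 16 passed the filter, with a median log2 fold change of −0.22 in *cer7*, while the medians for *rst1* and *ripr* were 0.10 and 0.06. Of these 16, the raised genes numbered 2 for *cer7*, 3 for *rst1* and 2 for *ripr*, and 0 were lowered. Over all genes tested 17.4%, 9.95% and 9.91% were raised, and 2.19%, 0.652% and 0.72% lowered. The raised genes, named after their values were seen, were *AT1G07590* and *AT1G66345* in each mutant, and *AT1G28000* in *rst1*. *AT1G07590* had 548 CPM in *cer7*, 367 CPM in *rst1* and 374 CPM in *ripr*, against 15.3 CPM in wild type, with log2 fold changes of 5.08 ± 0.49, 4.51 ± 0.49 and 4.53 ± 0.49 (edgeR, adjusted p = 1.2e-08, 1.4e-07 and 1.2e-07). Fold changes of this size were found on none of the 10 listed genes.

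Other known sources of phased siRNAs showed a mixed picture. Of 16 loci listed, 8 were in the table and 6 passed the filter. The 8 TAS loci of the list had no row in the table, so the picture covers only auxin receptor and CC-NBS-LRR genes. *AT5G43740*, a gene for a disease resistance protein of the CC-NBS-LRR type, was raised in *rst1* (1.31 ± 0.20, edgeR, adjusted p = 2.4e-05) and in *ripr* (1.23 ± 0.20, adjusted p = 5.0e-05), and kept both calls in every alternative run. It had 1141 ± 206 CPM in *cer7*, 1779 ± 354 CPM in *rst1* and 1682 ± 179 CPM in *ripr*, against 716 ± 153 CPM in wild type. In *cer7* its log2 fold change of 0.67 ± 0.20 did not pass (adjusted p = 0.0101), and the direct difference between *cer7* and *rst1* was −0.64 ± 0.16 (adjusted p = 0.0164). AFB2, an auxin receptor gene, had 206 ± 42.9 CPM in *cer7*, 265 ± 45.4 CPM in *rst1* and 219 ± 30.0 CPM in *ripr*, against 359 ± 71.3 CPM in wild type. Its log2 fold changes, −0.79 ± 0.20 in *cer7* and −0.71 ± 0.19 in *ripr*, had adjusted p-values of 0.00327 and 0.0096 but were smaller than the fold threshold. Over the 6 genes the median was −0.18 in *cer7*, with 0.02 in *rst1* and −0.21 in *ripr*.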

How the data were processed

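Small RNA libraries were made from flower buds (NEBNext kit) and sequenced as single reads of 50 bases. The authors trimmed adapters with cutadapt 1.18, aligned reads without mismatches to TAIR10 with ShortStack in unique mode and counted reads of 21 and 22 nt per gene. The deposited table holds these raw counts with a column for each library. The counting tool, the use of strand and the treatment of overlapping genes are not given in the sources used here. Totals of 192747 to 522464 counts cover 1 length class on genes and are not the depth of the libraries.

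Counts were analysed in R 4.3.3 with edgeR 4.0.16 (filterByExpr, minimum count 10, minimum total 15, TMM, glmQLFit and glmQLFTest) in 4 groups over 20 libraries, and in 7 groups for the lines. P-values were adjusted over the 2916 genes tested (3329 in 7 groups) by Benjamini-Hochberg. Calls needed an adjusted p below 0.01 and a log2 fold change beyond 1. SE is the absolute log2 fold change divided by the square root of the F statistic. DESeq2 1.42.0, other scalings and filters, a replicate block, other thresholds and leaving out each library were alternatives. The procedure was also run on simulated counts, whose settings and outcome are not given here, so no support is drawn from them. The 19 pairs of replicates of a line differed by more than sampling noise (a chi-square of 3.79 to 11.8 for each degree of freedom) and were each counted as 1 replicate. Nothing in the labels says that the replicates are more than separate samples, though the study describes them as grown at different dates, so p-values measure the spread between these libraries.

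Sites were searched for 27 small RNAs on the longest transcript of each gene in the TAIR10.1 annotation, in which 26718 of the 27415 identifiers were matched. TAS2 siRNAs were read from the register of the miR173 site over 12 positions on both strands. Coding sequences were compared as nucleotides. All 10 genes were named by rule. The rule also allowed PPR genes numbered *AT1G62000* to *AT1G64999* and listed phased loci that passed the filter. It further allowed the 5 other PPR genes with the highest wild-type level and the 5 genes most correlated with the members' mean. Not all genes so allowed were named. *AT1G07590*, *AT1G66345* and *AT1G28000* fell outside the rule and were named after their values were seen. The members and lists were chosen with earlier results of these data known.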

Additional observations from a re-analysis of the deposited data

Results flagged for a closer look

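The share of counts on the 10 genes in *ripr(insT)* replicate 1, 4.51%, lay far from the other 5 *ripr* libraries, which ranged from 3.61% to 3.95% (gap over range 0.629). The same library had the highest *ripr* values of *AT1G63080* (12698 CPM), *AT1G62910* (5238 CPM) and *AT1G63400* (3602 CPM, 1147 counts). Of 33 groups of values examined in this way, it was the only one set apart, and chance sets apart about 1 in 20. Without it the share in *ripr* was 3.78%, still above the 3.08% of wild type.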

How the results depend on the processing

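Calls on the members were stable apart from *AT1G62914*. With library totals as the only scaling, 1 member was called between *cer7* and *rst1*, while the median of all genes moved to −0.31. Without the other genes raised in any mutant in the total, the share of counts on the members was 4.00% in *cer7*, 4.89% in *rst1* and 4.69% in *ripr*. Small fold changes changed sign with the scaling in *cer7*. With TMM on genes raised in no mutant they were 0.18 for *AT1G62590*, 0.17 for *AT1G63080* and 0.039 for *AT1G63150*, and 0.046 for *AT1G62910* in *ripr*. With library totals they were −0.14 for *AT1G62670*, −0.22 for *AT1G62930*, −0.15 for *AT1G63130*, −0.22 for *AT1G63400* and −0.30 for *AT1G12775*. With a mean count of at least 10 they were 0.065 for *AT1G62590* and 0.053 for *AT1G63080*, with 7 lines −0.054 for *AT1G62930* and −0.069 for *AT1G12775*, and with only the compared groups −0.049 for *AT1G12775*. For *AT1G63330* in *rst1*, −0.0062 was found without a filter, −0.0037 with DESeq2 and −0.012 with 7 lines. The cause of these changes was not tested.

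Leaving out 1 library gave 0 to 1 members raised in *rst1*. Fold changes that changed sign in *cer7* ran from −0.21 to 0.11 for *AT1G62590*, −0.12 to 0.43 for *AT1G62670*, −0.26 to 0.34 for *AT1G62930*, −0.19 to 0.031 for *AT1G63080*, −0.093 to 0.26 for *AT1G63130*, −0.99 to 0.13 for *AT1G63330*, −0.15 to 0.20 for *AT1G63400* and −0.22 to 0.10 for *AT1G12775*. In *rst1* they ran from −0.15 to 0.12 for *AT1G62910*, −0.43 to 0.69 for *AT1G63330* and −0.042 to 0.34 for *AT1G63400*, and in *ripr* from −0.28 to 0.012 for *AT1G62910*, −0.062 to 0.12 for *AT1G63150* and −0.41 to 0.71 for *AT1G63330*. *AT1G62914* ran from −0.058 to 1.12 between the *cer7* lines and from −0.0073 to 0.53 between the *rst1* lines. Of these fold changes 0 were calls.

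With the replicate number as a block, 1 member was raised in *rst1* (*AT1G62914*, 1.11) and 0 in *cer7* and *ripr*, as without it, and over all genes 512, 295 and 287 were raised in *cer7*, *rst1* and *ripr*, beside 507, 290 and 289 without the block. *AT1G63630* was not called in *cer7* with the block (−1.08, adjusted p = 0.0105). The numbers share no stated date, and the main fit did not take them as pairs. Residuals of same-numbered libraries correlated by −0.16 to 0.27 (57 pairs, median 0.07, 14 above 0.1). Those of different-numbered libraries correlated by −0.25 to 0.17 (114 pairs, median −0.03, 5 above 0.1). Of 20 libraries, 17 correlated best with their own number. Libraries of 1 number were thus somewhat more alike, and whether they share a batch was not tested.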
